A study of Mus musculus with 9 samples.

Results

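Expression of 10 genes of foamy and lipid-associated macrophages was followed in the mouse aortic arch. The 10 genes are Trem2, Gpnmb, Spp1, Lgals3, Cd9, Fabp5, Mmp12, Atp6v0d2, Acp5 and Itgax. They were chosen by name from what is known of these cells, and all 10 were found among the 21989 genes of the table. RNA sequencing gave 9 libraries in 3 groups of 3. The control group consisted of C57BL/6J mice that ate standard diet. The model group were ApoE-/- mice fed a high-fat diet for 15 weeks, and the high dose group were ApoE-/- mice on that high-fat diet that also received ZCL by gavage at 5.12 g/kg/day over the 15 weeks. ZCL is the name the labels use for the preparation under study, and the series is named for the plant Ziziphora clinopodioides Lam. Both ApoE-/- groups lack an apolipoprotein that clears remnant lipoproteins, in every cell and not only in macrophages, and genotype and diet differ together from the controls. The age of the mice is not given in the sources used here.

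Foamy macrophages are cells of the artery wall that have taken up more lipoprotein cholesterol than they can export. They store the excess as cholesteryl ester droplets. A set of genes marks this state in plaque and in other fat-laden tissues: the receptor TREM2 senses lipids and signals through the adaptor TYROBP, and lysosomal genes are driven by factors of the MITF and TFE family. Several of the same genes are also known from osteoclasts, the bone-resorbing cells of the same lineage.

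The start regions of the genes were searched for motifs of factors known in macrophages and osteoclasts. The promoter windows of RefSeq on GRCm38.p6, each 250 bases before to 50 bases after a start, covered 8 of the 10 genes with 12 windows. Fabp5 and Atp6v0d2 were not matched. On both strands, the M-box TCATGTG of MITF and TFE factors lay in 2 of the 12 windows, for 2 of the 8 genes, Mmp12 and Acp5. Over all 32851 windows the share was 3.77%. The related E-box TCACGTG differs from the M-box by 1 letter and cannot overlap it in place. It lay in 0 of the 12 windows of the 8 genes and in 3.77% of all windows. The core site AGGAAGT of PU.1, the lineage factor of macrophages, was present in 2 of the 12 windows, for Spp1 and Mmp12, and in 9.35% of all windows. The AP-1 site TGACTCA was present in 3 of the 12 windows, for Gpnmb, Itgax and Mmp12, and in 5.20% of all windows. The stretches below are shown because Spp1, Mmp12 and Itgax were among the genes whose model and control libraries did not overlap, while Acp5 followed another course. Each is written 5′ to 3′ on the gene's own strand, and the capitals mark the motif named for that stretch or its reverse complement. The M-box stretch of Mmp12 also holds the AP-1 site of that window, in lower case near its end. None overlaps an annotated exon. The Acp5 stretch comes from 1 of the 3 windows of that gene. It lies inside the annotated gene, chr9:22126727-22135711, and not before its outermost start.
Spp1, chr5:104434959-104435045, plus strand, PU.1 core: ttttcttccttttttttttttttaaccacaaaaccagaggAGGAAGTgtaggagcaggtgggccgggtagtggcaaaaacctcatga
Mmp12, chr9:7344269-7344355, plus strand, PU.1 core: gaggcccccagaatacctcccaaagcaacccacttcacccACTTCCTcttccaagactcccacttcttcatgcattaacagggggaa
Mmp12, chr9:7347251-7347337, plus strand, M-box before a second start: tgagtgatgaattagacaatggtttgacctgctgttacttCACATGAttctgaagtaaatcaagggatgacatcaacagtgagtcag
Acp5, chr9:22130642-22130728, minus strand, M-box: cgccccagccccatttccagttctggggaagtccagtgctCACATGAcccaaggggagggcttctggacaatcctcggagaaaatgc
Itgax, chr7:128129454-128129540, plus strand, AP-1 site: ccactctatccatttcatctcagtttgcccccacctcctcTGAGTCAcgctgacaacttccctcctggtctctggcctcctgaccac
A match of letters is a description of the window and does not show that a factor binds there.

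Levels are given in FPKM, which divides the fragments of a gene by its length and by the library's depth. The libraries held 11894409 to 21125983 fragments, most in model 1. Apoe, the gene removed in both ApoE-/- groups, lay between 339.9 and 1006 FPKM in the controls and between 18.9 and 93.7 FPKM in the other 6 libraries. Contractile smooth muscle genes of the artery wall were present in every library, with a summed level of 473 to 4553 FPKM over 8 genes. The libraries also held unequal amounts of neighbouring tissue. Myh6, a myosin of heart muscle, lay at 2729 and 807 FPKM in control 1 and 2, at 634 and 1554 FPKM in high dose 2 and 3, and between 1.85 and 6.34 FPKM in the other 5. Scgb1a1, the club cell secretoglobin of the airway, reached 6425 FPKM in control 2 and 20438 FPKM in high dose 2, against at most 68.6 FPKM elsewhere. Ucp1 of brown fat was highest in control 3, at 7979 FPKM, and Dbh, an enzyme of noradrenaline synthesis in sympathetic neurons, in high dose 1, at 839 FPKM. These markers differ between libraries of 1 group, and their part in the results was not tested except where a value is given. Whether the 3 libraries of a group stem from different mice is not given in the labels, so the p-values reflect the spread among these samples, part of which may be technical.

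Over the 10 genes, the mean log2 level was 2.92 to 4.26 in control, 5.63 to 8.38 in model and 4.33 to 6.91 in high dose, and no gene passed the test in any comparison. In this mean the 3 model libraries were all above the 3 control libraries, and the high dose libraries overlapped the model range, high dose 3 standing above model 2 and 3. The median log2 difference of the 10 genes was 2.59 in model against control, -1.43 in high dose against model and 1.49 in high dose against control. Over all 12895 genes tested the medians were -0.01, 0.0008 and 0.0022. Of the 10 genes, 10 were higher in model than in control, 9 were lower in high dose than in model with Cd9 the exception, and 9 were higher in high dose than in control with Acp5 the exception. Comparisons that share a group share its libraries and are not independent of each other. In a piece of whole tissue, more cells of a type and more RNA per cell cannot be told apart.

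With limma and Benjamini-Hochberg adjustment, 0 of the 10 genes and 0 of 12895 genes (0%) passed an adjusted p of 0.05 in model against control, and likewise 0 of 10 and 0% in each of the other 2 comparisons. The smallest limma adjusted p over all genes was 0.216, 0.0883 and 0.33. At an unadjusted p under 0.05, limma gave 821, 1729 and 701 genes, of which 6, 1 and 3 were among the 10. The alternative limma-voom fit on whole fragments recovered from the FPKM also called 0 genes in each comparison, with 676, 1519 and 634 genes at an unadjusted p under 0.05. Weighting the libraries by their own spread (array weights) called 684 genes in model against control, among them Gpnmb, Spp1, Mmp12 and Acp5, with limma adjusted p of 0.0434, 0.0467, 0.0434 and 0.0447. The weights ran from 0.379 for control 3 to 5.92 for model 2.

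**Figure D1:**
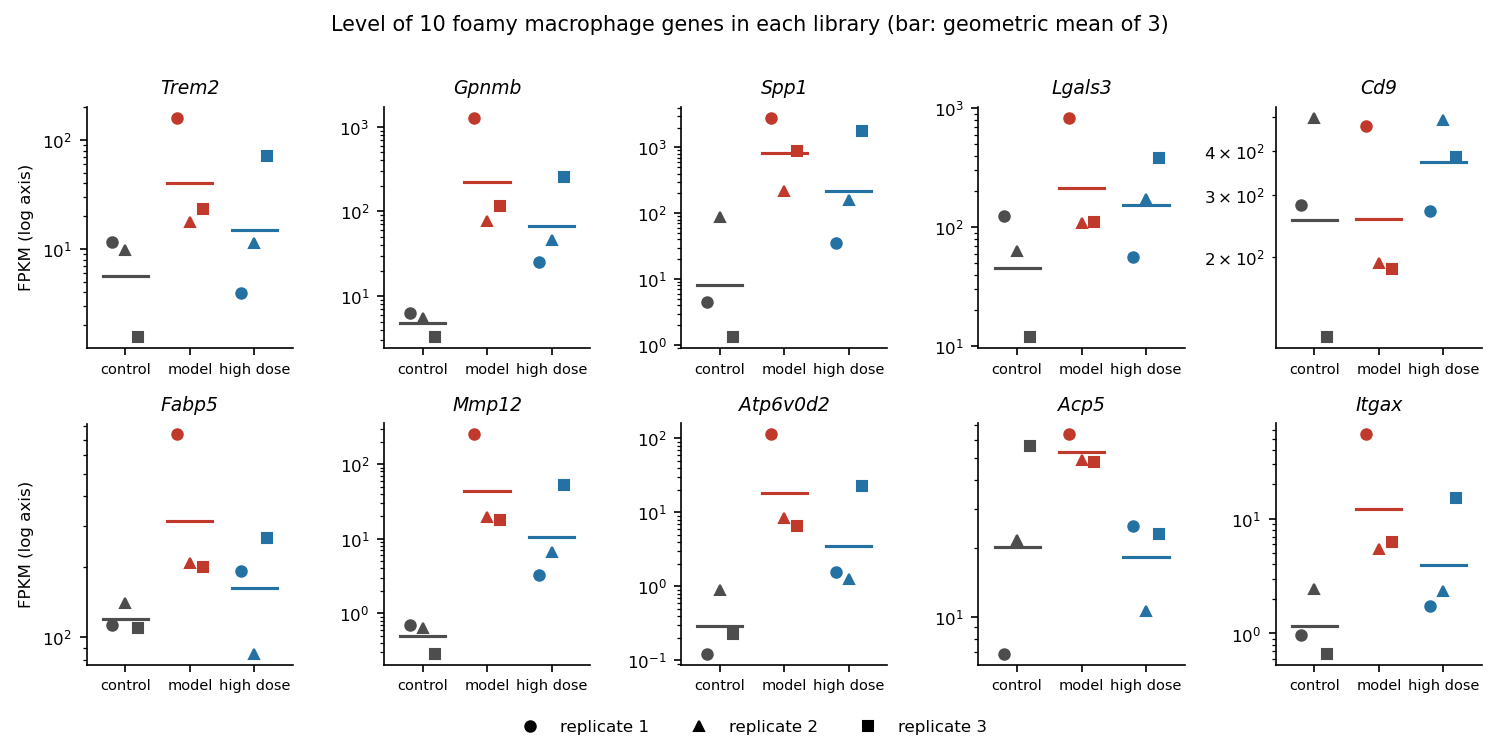
FPKM of the 10 genes on log axes, with 1 panel per gene, the 3 groups on the horizontal axis, 1 symbol per library (circle, triangle and square for replicates 1, 2 and 3) and a bar for the geometric mean of 3 libraries. Model 1 is the highest library for 9 of the 10 genes and high dose 3 the second highest for 8, while Cd9 and Acp5 have other orders.

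The receptors of the set were low in control tissue. Trem2, the lipid-sensing receptor (chr17:48346401-48354147, plus strand, GENCODE release M21 on GRCm38), stood at 11.7, 9.90 and 1.54 FPKM in control 1, 2 and 3. In the model libraries, in the same order, it reached 159.7, 17.6 and 23.3 FPKM, and in the high dose libraries 3.96, 11.4 and 71.8 FPKM. The model libraries all exceeded the control libraries, while high dose 1 and 2 sat within the control range and high dose 3 above 2 of the model libraries. The log2 difference was 2.56 ± 1.15 (SE) in model against control and -1.34 ± 1.15 in high dose against model, with a limma adjusted p of 0.761 and 0.604. Itgax encodes integrin alpha X (CD11c), which forms a receptor with the beta 2 chain Itgb2, and lies at chr7:128129547-128150657 on the plus strand. It was detected at 0.968, 2.43 and 0.663 FPKM in control, at 54.5, 5.48 and 6.23 FPKM in model and at 1.75, 2.34 and 15.2 FPKM in high dose. Model and control did not overlap, and high dose 1 and 2 sat within the control range. Its difference of 2.62 ± 0.92 in model against control missed the threshold, with a limma adjusted p of 0.713.

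Gpnmb and Cd9, both membrane proteins, followed different courses. Gpnmb is a glycoprotein of lysosomes and the cell surface and a target of MITF (chr6:49036546-49070929, plus strand). Its levels were 6.34, 5.53 and 3.24 FPKM in control, 1269, 76.6 and 114 FPKM in model, and 25.6, 46.5 and 253 FPKM in high dose. This gene separated the control libraries from both ApoE-/- groups without overlap, and the lowest of those 6 libraries still held 1585 fragments. The mean was 487 ± 678 FPKM (SD, n = 3) in model and 5.04 ± 1.61 FPKM (SD, n = 3) in control, a ratio of 96.6, to which model 1 gave most, being 16.6 and 11.1 times model 2 and 3. Its log2 difference of 5.26 ± 1.11 had a limma adjusted p of 0.688, and that of -1.72 ± 1.11 in high dose against model 0.486.

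Cd9 is a tetraspanin found on many cell types, among them smooth muscle, epithelium and platelets (chr6:125460266-125494791, minus strand). It was abundant everywhere, at 281, 496 and 118 FPKM in control, 472, 192 and 184 FPKM in model, and 270.4, 491 and 385 FPKM in high dose. The groups overlapped in every comparison, and the difference of 0.01 ± 0.57 in model against control turned to -0.54 without control 3, to -0.43 without model 1, to -0.50 with array weights and to -0.03 in limma-voom. Its highest libraries, control 2 and high dose 2, were those with Scgb1a1 at 6425 and 20438 FPKM. The part of airway tissue in the level of Cd9 was not tested. Of platelet genes, 8 in the list, the summed level was 10.5 to 23.9 FPKM in control, 17.8 to 25.6 FPKM in model and 4.81 to 12.8 FPKM in high dose.

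The secreted proteins of the set gave its largest values. Spp1 encodes osteopontin, a matrix protein that binds CD44 and integrins (chr5:104435118-104441050, plus strand). It lay at 4.50, 87.2 and 1.30 FPKM in control, at 2792, 214 and 895 FPKM in model and at 35.7, 157 and 1755 FPKM in high dose. Model and control did not overlap, high dose overlapped with both, and control 2 stood far above the other controls. The difference in model against control, 6.29 ± 1.71 with a limma adjusted p of 0.688, was the largest of the 10 genes. Mmp12, the macrophage elastase, was almost silent in control tissue, with 42, 29 and 14 fragments or 0.693, 0.646 and 0.286 FPKM. In model it reached 250.5, 19.5 and 17.7 FPKM and in high dose 3.23, 6.71 and 52.1 FPKM. Control was separated from both other groups, by a ratio of means of 177 for model and 38.2 for high dose, and high dose overlapped with model through high dose 3. Its gene (chr9:7344381-7369499, plus strand) overlaps Mmp1b on the other strand, and without a stated strand setting fragments of the overlap cannot be told apart.

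Lgals3 encodes galectin-3, a sugar-binding protein secreted by activated macrophages (chr14:47367751-47386160, plus strand). Control held 124, 62.9 and 11.8 FPKM, model 829.8, 109 and 110.2 FPKM and high dose 55.8, 172 and 383 FPKM. Model 2 and 3 lay below control 1, so the groups overlapped, and did not once control 1 was left out. The difference was 2.21 ± 1.09 in model against control and -0.48 ± 1.09 in high dose against model, and the latter turned to 0.49 without model 1 and to 0.25 without high dose 1.

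Fabp5, a fatty acid binding protein of macrophages that is also made in epithelium and fat, varied least of the set in control, relative to its mean (chr3:10012548-10016607, plus strand). It measured 113, 140 and 109 FPKM there, 737, 207 and 199.9 FPKM in model, and 191, 84.5 and 266 FPKM in high dose. All model libraries exceeded all control libraries, and high dose 2 was the lowest of the 9. The log2 difference of 1.38 ± 0.57 in model against control had a limma adjusted p of 0.749. A gene of similar name, Fabp5l2, is annotated, and how the authors' counting divided fragments between like sequences is not given in the sources used here.

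The lysosomal and osteoclast-type genes Atp6v0d2 and Acp5 diverged. Atp6v0d2, a subunit of the proton pump that acidifies lysosomes (chr4:19876841-19922605, minus strand), rested on 8, 44 and 12 fragments in control, which is 0.122, 0.907 and 0.226 FPKM. The 8 fragments of control 1 carry an exact Poisson 95% interval of 3.45 to 15.8 fragments, which covers counting error only. Model libraries held 113, 8.45 and 6.51 FPKM and high dose libraries 1.55, 1.25 and 22.7 FPKM, so both groups lay wholly above control. For high dose the gap was narrow. The Poisson 95% interval of control 2, 0.659 to 1.22 FPKM, overlapped that of high dose 2, 0.982 to 1.57 FPKM. The difference of 3.86 ± 1.16 in model against control had a limma adjusted p of 0.688. Its widespread paralogue Atp6v0d1 differed by 0.32 ± 0.31 in the same comparison and lay between 52.8 and 131 FPKM in the 9 libraries.

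Acp5 is the tartrate-resistant acid phosphatase by which osteoclasts are stained (chr9:22126727-22135711, minus strand). Of the 10 genes, Acp5 alone had high dose wholly below model. It stood at 6.85, 21.7 and 56.8 FPKM in control, at 63.7, 49.2 and 48.1 FPKM in model and at 25.1, 10.6 and 23.3 FPKM in high dose. Model 1 was only 1.29 times model 2 here, against 7.59 to 16.6 times for Trem2, Gpnmb, Spp1, Lgals3, Mmp12, Atp6v0d2 and Itgax. The difference in high dose against model was -1.48 ± 0.64, with a limma adjusted p of 0.37 and an unadjusted p of 0.048. Control 3, the highest control, was the library with Ucp1 at 7979 FPKM, and the part of fat tissue in the level of Acp5 was not tested. Using only the libraries with Myh6 under 10 FPKM, which leaves control 3 as the sole control, the model against control difference turned from 1.32 to -0.09.

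Genes without overlap between groups were counted beside the same count over all genes. All 3 model libraries lay above all 3 control libraries for 7 of the 10 genes, Trem2, Gpnmb, Spp1, Fabp5, Mmp12, Atp6v0d2 and Itgax, and for 6.91% of all genes tested. Leaving a library out can keep or raise such a count but cannot lower it, so these counts do not measure stability. The count was 7 or 8 whichever of the 6 libraries was left out. The share of all genes rose to between 8.30% and 21.7%, highest without control 2. High dose lay wholly below model for 1 of the 10 genes, Acp5, and for 10.9% of all genes. Without high dose 3 the count was 8 of 10, beside 18.3% of all genes, and with any other of the 6 libraries left out it was 1, beside 12.0% to 19.8% of all genes. High dose lay wholly above control for 3 genes, Gpnmb, Mmp12 and Atp6v0d2, and for 3.66% of all genes; the count was 5 without control 2 or without high dose 1, beside 14.5% and 9.67% of all genes. All 10 genes passed the filter of 1 FPKM in at least 3 libraries. Mmp12 and Atp6v0d2, under 1 FPKM in every control library, passed only through the ApoE-/- groups. Itgax, which reached 1 FPKM in control 2 alone among the controls, also needed those groups to pass. The counts of genes above control include these genes and are not independent of the filter.

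**Figure D2:**
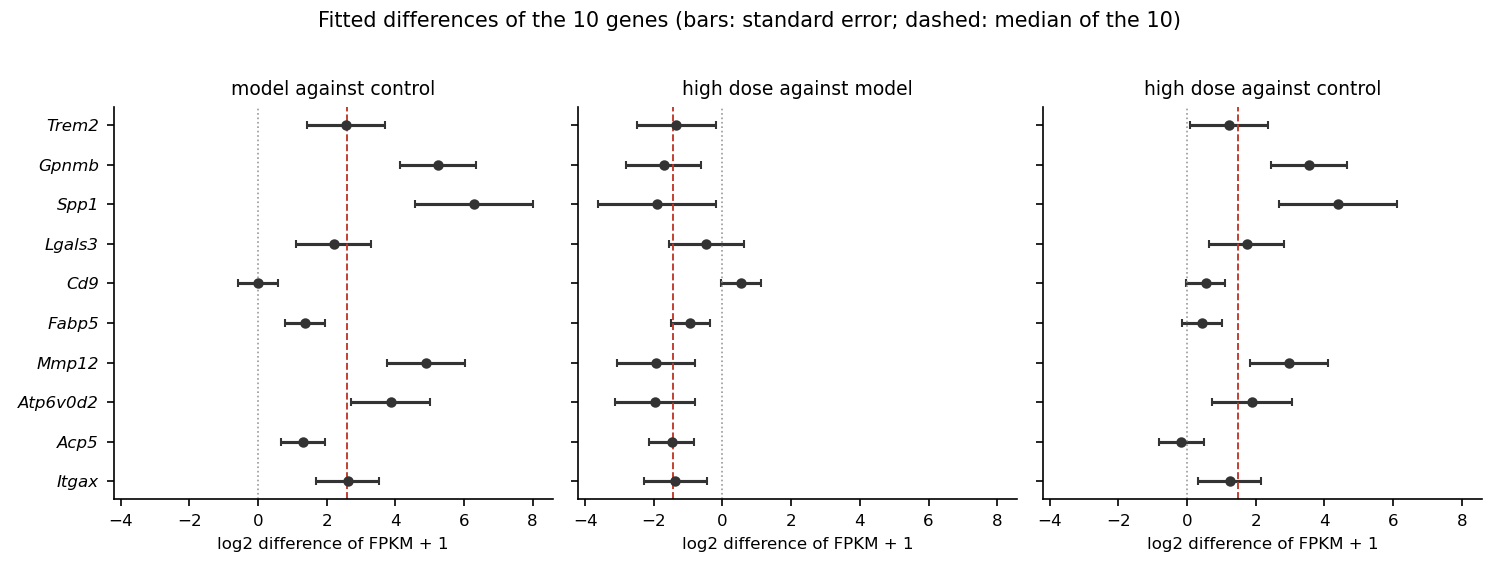
Log2 differences of FPKM + 1 for the 10 genes in the 3 comparisons, with points for the fitted value, bars for its standard error, a dotted line at 0 and a dashed line at the median of the 10. In model against control the values run from 0.01 for Cd9 to 6.29 for Spp1, in high dose against model from -1.96 for Atp6v0d2 to 0.54 for Cd9, and in high dose against control from -0.16 for Acp5 to 4.39 for Spp1.

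A single library carried much of the size of these differences in each ApoE-/- group. Without model 1 the median of the 10 genes was 1.60 in model against control and -0.42 in high dose against model. Without high dose 3 it was -2.30 in high dose against model and 0.66 in high dose against control. In high dose against control it was 0.91 without control 3 and 2.25 without high dose 1. With only the libraries of Myh6 under 10 FPKM, which are control 3, the 3 model libraries and high dose 1, the medians were 4.03, -2.65 and 1.12, where the lone libraries of control and high dose are assumed to vary like the model libraries. Control and high dose then hold 1 library each, so only the size of the medians is given here.

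How alike the 10 genes were over the 9 libraries, a description of libraries that also differ in depth and tissue, separated 8 genes from 2. Each gene's Pearson correlation with the mean of the other 9, in standardised log2(FPKM + 1), was 0.99 for Itgax, 0.98 for Atp6v0d2, 0.97 for Mmp12, 0.95 for Gpnmb, 0.93 for Trem2, 0.90 for Spp1, 0.87 for Fabp5 and 0.85 for Lgals3. It was 0.36 for Cd9 and 0.30 for Acp5. The closest pair was Gpnmb and Mmp12, at 0.993, and the most opposed was Cd9 and Acp5, at -0.44. Within the 6 libraries of the ApoE-/- groups the value for Acp5 was 0.50 and that for Cd9 0.28.

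Among the other genes tested, those most like the mean of the 10 were Cd68, Tnfaip2, Sirpa, Tnfrsf1b, Ms4a7, Hpgds, Mpeg1 and Cd300c2, with Pearson correlations of 0.982 to 0.988 over 9 libraries. Cd68, a lysosomal glycoprotein used to stain macrophages, lay at 11.9, 16.2 and 8.39 FPKM in control, 396, 67.5 and 64.2 FPKM in model, and 19.0, 34.7 and 144 FPKM in high dose. Mpeg1, a pore-forming protein of phagocytes, lay at 7.76, 13.8 and 5.52 FPKM in control, 316, 61.0 and 44.4 FPKM in model, and 22.9, 19.0 and 132 FPKM in high dose. Ms4a7, a membrane protein of macrophages, lay at 0.762, 2.35 and 0.493 FPKM in control, 49.7, 10.1 and 8.19 FPKM in model, and 1.89, 3.10 and 24.2 FPKM in high dose. In all 3, every model library exceeded every control library, and model 1 and high dose 3 were the 2 highest of the 9. These genes were picked for their likeness to the 10 over the same libraries, so the shared order follows from the choice.

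General macrophage markers were set beside the 10 genes. Of 16 core macrophage genes 14 were tested, and 14 were higher in model than in control, with a median log2 difference of 1.91. For 12 of the 14 this was without overlap, beside 6.91% of all genes. The limma fit called 0 of 14. It gave 11 of 14 an unadjusted p under 0.05, beside 821 of all 12895 genes. In high dose against model 13 of 14 were lower, with a median of -0.63 and 0 called. There 2 of the 14 lay wholly below model, beside 10.9% of all genes. Lyz2, lysozyme, lay at 213, 579 and 140.5 FPKM in control, 4275, 2997 and 958 FPKM in model, and 422, 479 and 1793 FPKM in high dose. Adgre1, which encodes F4/80, stood at 1.80, 1.90 and 1.74 FPKM in control, 12.4, 27.8 and 7.80 FPKM in model, and 1.85, 2.65 and 6.96 FPKM in high dose. Adgre1 thus differed from the 10 genes in its order, with model 2 highest. Every high dose library lay below every model library, which among the 10 held for Acp5 alone. The log2 difference of Adgre1 was -1.78 ± 0.49 in high dose against model, with a limma adjusted p of 0.25. The summed level of the core list was 270.1 to 828 FPKM in control, 1540 to 6153 FPKM in model and 627 to 3260 FPKM in high dose. Aif1, also a common macrophage marker, was at or under 3 fragments in every library, and Laptm5 was under 3 FPKM, a pair named after their values were seen.

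Relative to the mean of the 16 core genes in the same library, the set split. In log2(FPKM + 1), Gpnmb was higher by 3.57, Spp1 by 4.60, Mmp12 by 3.22 and Atp6v0d2 by 2.18 in model than in control on this relative scale, each without overlap, although for Spp1 control 2 and model 2 were almost level at 2.86 and 2.87. Cd9 was the reverse, at -1.68 without overlap. Trem2 at 0.87, Itgax at 0.93, Lgals3 at 0.52, Fabp5 at -0.31 and Acp5 at -0.37 overlapped between model and control. In high dose against model all 10 genes overlapped on this scale, with values from -1.25 for Atp6v0d2 to 1.25 for Cd9. Against control, high dose lay wholly above for Gpnmb and Mmp12, by 2.57 and 2.00. These relative values are descriptions without a test.

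**Figure D3:**
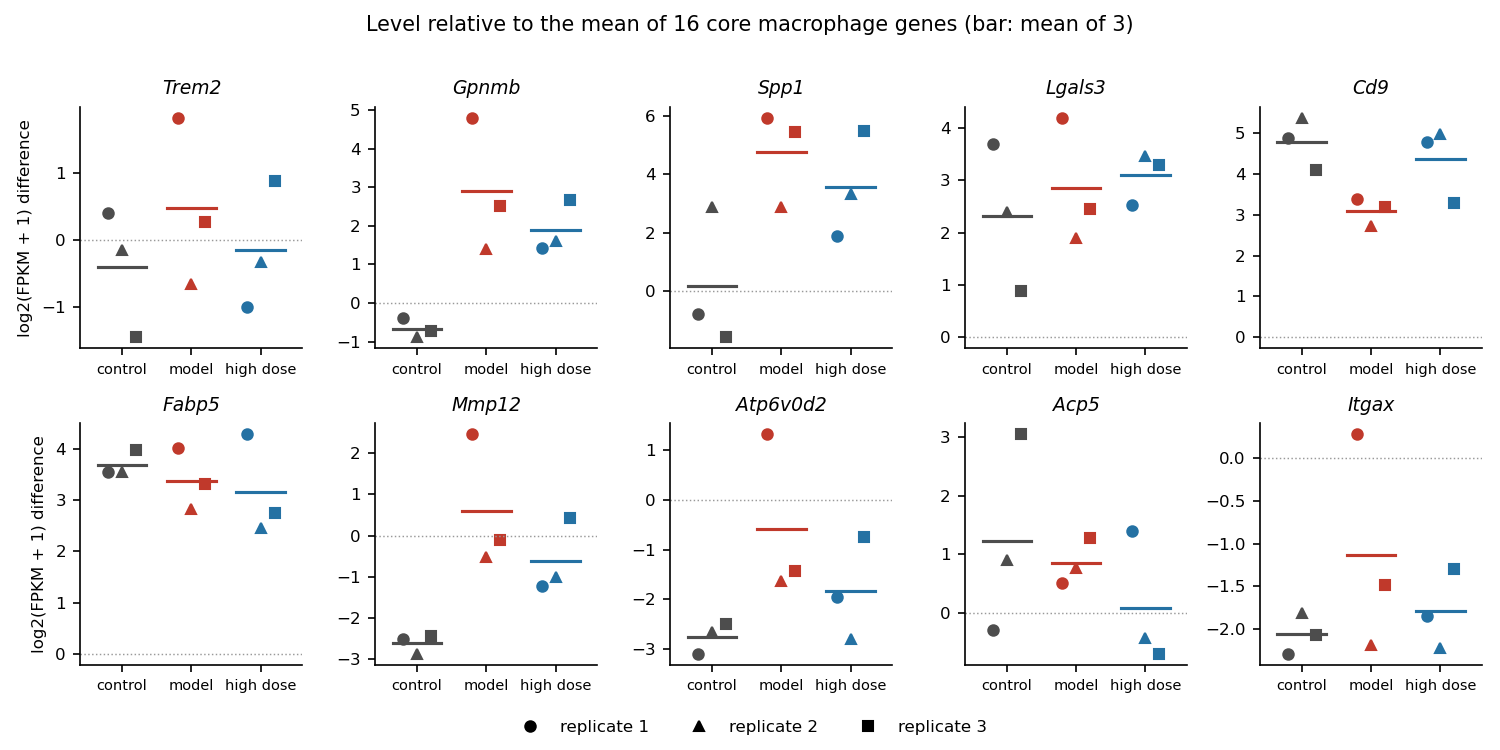
Each gene's log2(FPKM + 1) less the mean of 16 core macrophage genes in the same library, with 1 panel per gene, 1 symbol per library and a bar for the mean of 3. Gpnmb and Mmp12 lie above all control libraries in all 6 libraries of the ApoE-/- groups, whereas Trem2 and Itgax overlap between the groups.

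The ratio of FPKM to that of Cd68 in the same library, both scaled by gene length, was a second scale, and it sorted some genes differently. For each FPKM of Cd68 there were 0.534, 0.341 and 0.386 FPKM of Gpnmb in control, 3.20, 1.14 and 1.78 in model, and 1.35, 1.34 and 1.75 in high dose. The Gpnmb ratio separated control from both ApoE-/- groups, and high dose fell inside the model range. The Mmp12 ratio was 0.0583, 0.0398 and 0.034 in control, 0.632, 0.289 and 0.276 in model, and 0.17, 0.193 and 0.361 in high dose. The Trem2 ratio was 0.988, 0.61 and 0.184 in control, 0.403, 0.261 and 0.363 in model, and 0.208, 0.33 and 0.498 in high dose. Per Cd68, Mmp12 kept control below all model libraries, while Trem2 had its 2 highest ratios in control 1 and control 2. The Spp1 ratio overlapped, at 5.37 in control 2 against 3.17 in model 2. Fabp5 was wholly lower in model, at 1.86 to 3.11, than in control, at 8.61 or more, and so was Cd9. The Atp6v0d2 ratio was wholly higher in model, and those of Lgals3, Acp5 and Itgax overlapped.

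Partners of TREM2 signalling were measured with 10 genes, all tested. Of these, 10 were higher in model than in control, with a median log2 difference of 0.77, and 9 were lower in high dose than in model, with a median of -0.24; limma called 0 of 10 in each. Tyrobp, the adaptor through which TREM2 signals, lay at 19.9, 35.0 and 13.5 FPKM in control, 324, 151 and 67.4 FPKM in model, and 29.2, 34.3 and 191 FPKM in high dose. All model libraries exceeded all control libraries for Tyrobp, and its difference of 2.76 ± 0.79 had a limma adjusted p of 0.688. Adam10, a protease that sheds TREM2 from the cell surface, ranged only from 18.8 to 36.7 FPKM over the 9 libraries.

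Binding partners and paralogues of the 10 genes formed a list of 24, of which 20 were tested. In model against control 14 were higher and 6 lower, with a median of 0.41, and in high dose against model 7 were higher and 13 lower, with a median of -0.19; limma called 0 of 20 in each. Itgb2, the partner chain of Itgax, lay at 5.15, 19.3 and 4.93 FPKM in control, 104.5, 84.3 and 22.9 FPKM in model, and 13.2, 7.49 and 41.1 FPKM in high dose. Cd44, a receptor for osteopontin, lay at 10.5, 17.9 and 3.39 FPKM in control, 50.1, 19.0 and 14.4 FPKM in model, and 11.8, 20.7 and 35.1 FPKM in high dose. Itgb2 kept model above control without overlap, and Cd44 did not. Itgam, the alpha M chain that also pairs with Itgb2, peaked in model 2 at 79.1 FPKM, while model 1 held 18.8 FPKM. Its level was 1.91 to 4.87 FPKM in control, and its difference of 2.79 ± 0.68 had a limma adjusted p of 0.688.

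Other relatives of the 10 genes are shared by many cell types. Lgals1, galectin-1, lay at 291, 480.2 and 502 FPKM in control, 802, 845 and 872 FPKM in model, and 302, 405 and 340.6 FPKM in high dose. Its 3 model libraries lay above all others, and its difference of -1.27 ± 0.31 in high dose against model had a limma adjusted p of 0.208. Cd81, a tetraspanin like Cd9, ranged from 160.3 to 265 FPKM, lower in all model than in all control libraries, with a difference of -0.48 ± 0.22. Lgals3bp, a ligand of galectin-3, lay at 25.8 to 39.8 FPKM in control, 50.2 to 81.6 FPKM in model and 55.5 to 78.5 FPKM in high dose, so that control was below both groups.

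Acp5 and Atp6v0d2 are osteoclast genes too, and other genes of that cell type were read from the same fit. Of 13 genes 9 were tested. In model against control 8 were higher and 1 lower, with a median of 0.56, and limma called 0 of 9. In high dose against model 2 were higher and 7 lower, with a median of -0.43, and limma called 0 of 9. High dose lay wholly below model for 3 of the 9, as for Acp5, and wholly above for 1. Over all genes tested, 10.9% lay wholly below. Tcirg1, another subunit of the proton pump, lay at 18.2, 27.8 and 15.1 FPKM in control, 95.9, 42.5 and 29.8 FPKM in model, and 32.2, 47.7 and 81.1 FPKM in high dose. Ctsk, the collagen-cleaving cathepsin K, lay at 10.9, 6.61 and 3.26 FPKM in control, 83.5, 9.94 and 19.7 FPKM in model, and 3.05, 6.47 and 25.9 FPKM in high dose. Both had model 1 highest, as the set did, and Tcirg1 alone of the pair kept model above control in every library. The fusion genes Dcstamp and Ocstamp stayed under 1 FPKM in all 9 libraries, and so did the calcitonin receptor Calcr; these 3 were named after their values were seen.

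MITF and TFE factors, known to drive lysosomal genes, differed in their course. Mitf itself was at 6.57, 4.44 and 1.94 FPKM in control, 5.40, 2.80 and 3.01 FPKM in model, and 2.54, 2.76 and 6.17 FPKM in high dose. The groups overlapped, and the difference was -0.10 ± 0.42 in model against control and -0.01 ± 0.42 in high dose against model. Tfe3 lay at 12.0 to 14.9 FPKM in control, 16.9 to 19.2 FPKM in model and 15.9 to 23.9 FPKM in high dose, so control was below both groups, with a difference of 0.40 ± 0.20 in model against control. Tfeb ranged between 6.26 and 17.2 FPKM over the 9 libraries. Tfec, named after its values were seen, was too low to be tested, at 0.0854 to 0.331 FPKM or 5 to 24 fragments in control, 0.532 to 2.59 FPKM in model and 0.109 to 0.747 FPKM in high dose. Its model libraries lay above its control libraries, and high dose overlapped with both. Of the 4 factors 3 were tested, and limma called 0 of 3 in each comparison.

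Other genes used to describe foamy cells numbered 24, of which 23 were tested. In model against control 19 were higher and 4 lower, with a median of 1.24, and in high dose against model 4 were higher and 19 lower, with a median of -0.56; limma called 0 of 23 in each. The 2 most abundant, Fabp4 and Lpl, are also genes of fat cells. Fabp4, the adipocyte fatty acid binding protein, lay at 2773, 5670.2 and 17306 FPKM in control, 4373, 10359 and 11397 FPKM in model, and 8708, 1454 and 4454 FPKM in high dose. Its highest library was control 3, that of highest Ucp1, and its correlation with the mean of the 10 genes was -0.17 over 9 libraries. Lpl, lipoprotein lipase, also peaked in control 3, at 3160.3 FPKM, and had a correlation of -0.44. The share of fat in their levels was not tested.

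The lists of other tissues and cells were compared with the 10 genes across the libraries. Over the 9 libraries the mean log2 level of the core macrophage list correlated with the mean of the 10 genes at 0.945, that of the osteoclast list at 0.956 and that of the TREM2 signalling list at 0.915. The mixed list of partners and paralogues reached 0.914, the other foamy macrophage genes 0.910 and the MITF and TFE factors 0.836. The correlation was 0.79 for 8 inflammatory macrophage genes, 0.21 for resident adventitial macrophage genes, -0.045 for alveolar macrophage genes, -0.081 for heart muscle, -0.16 for airway epithelium and -0.60 for sympathetic neurons. Alveolar macrophages could enter with airway tissue, and the genes of their list took different courses. Siglecf lay at 0 to 0.8 FPKM, Marco at 0 to 15.3 FPKM with its highest level in model 2, and Ear2 at 3.18 to 16.8 FPKM with its highest in control 2. Siglecf, Marco and Ear2 were named outside the rules of choice. Chil3, also made by other myeloid cells, was wholly higher in high dose, at 19.8 to 44.6 FPKM, than in model, at 6.75 to 15.5 FPKM, or control, at 2.05 to 11.1 FPKM. The summed alveolar list lay at 74.1 to 155 FPKM in control, 75.5 to 124 FPKM in model and 89.3 to 119 FPKM in high dose, most of it Car4, which capillary endothelium also makes. The summed heart list lay at 25.2 to 28491 FPKM in control, 42.4 to 83.8 FPKM in model and 24.9 to 16964 FPKM in high dose, and that of sympathetic neurons at 139.7 to 1104 FPKM, 6.75 to 27.7 FPKM and 32.6 to 3932 FPKM. Every model library was thus below every control library in neuron genes, and the part of such tissue differences in the results was not tested.

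**Figure D4:**
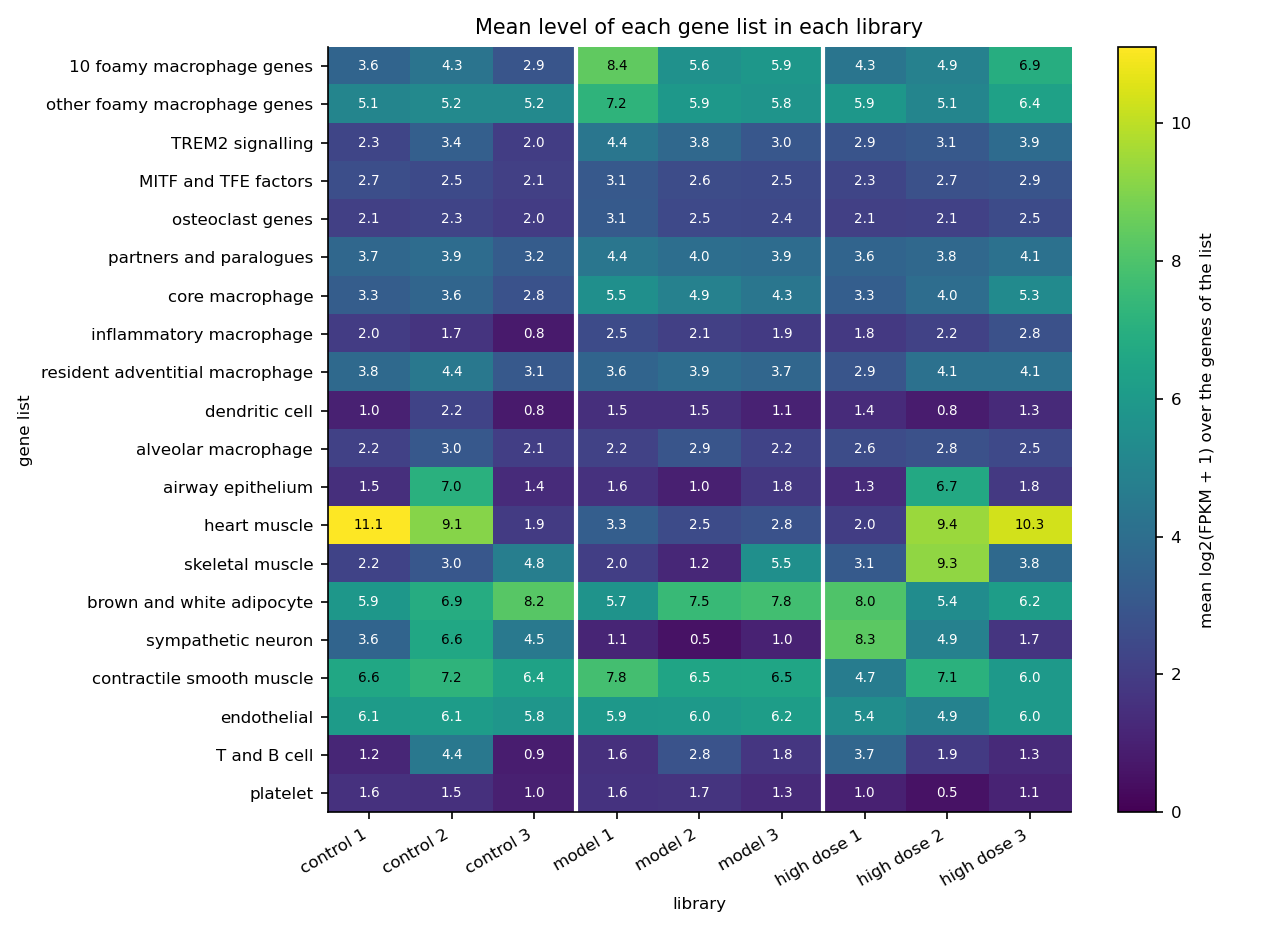
Mean log2(FPKM + 1) of each gene list, 1 row per list and 1 column per library, on a colour scale that starts at 0, with white lines between control, model and high dose. The row of the 10 genes is highest in model 1, at 8.38, and next in high dose 3, at 6.91, and the core macrophage row has the same 2 libraries highest, whereas the rows of heart muscle, airway epithelium and sympathetic neurons peak in other libraries.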

How the data were processed

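RNA from 9 aortic arch libraries, 3 per group by the sample titles, was sequenced after messenger RNA purification, per the labels' protocols. The authors deposited 1 table of FPKM values for 21989 gene names. Columns were matched to titles by name, AS being the model group. The submitters' processing notes name GRCm38.p5 and mm10. No aligner, counter or strand option is given in the sources used here. All libraries carry batch label 1.

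FPKM scales every gene to the library total. Because values step by whole fragments, fragments were recovered for 18704 of 18738 genes above 0, to within 0.0002 fragments, and they gave library totals of 11894409 to 21125983. Differences on log2(FPKM + 1) were fitted in R 4.3.3 with limma 3.58.1, a scale that understates the change of low genes, with all 9 libraries in 1 fit, empirical Bayes with a trend, two-sided, with Benjamini-Hochberg adjustment over the 12895 genes of at least 1 FPKM in at least 3 libraries. Values carry the SD of 3 libraries and log2 differences the SE of the fit. The procedure was tested on simulated data. Intervals for fragments are exact Poisson at 95%.

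The 10 genes, the other 19 lists and the tests were chosen with earlier results of these data known. Genes named by rule were the 10, the 2 most abundant of other lists, 15 fixed genes and the 8 most correlated with the 10, without clones. Cd5l, Siglecf, Marco, Ear2 and the genes marked as named after their values were seen lie outside these rules. Alternatives were quantile normalization, median-ratio rescaling, array weights, a pseudocount of 0.1, no filter on low values, a filter on a mean of 5 FPKM, only the 2 groups compared, a replicate block, each library left out, and only libraries with Myh6 under 10 FPKM; limma-voom on the fragments was added after seeing the data. Promoters came from RefSeq on GRCm38.p6 and gene positions from GENCODE release M21. Python 3.11.15 with pandas 2.3.3, numpy 2.4.6, scipy 1.17.1 and matplotlib 3.10.9 was used.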

Additional observations from a re-analysis of the deposited data

How the results depend on the processing

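The test called 0 of the 10 genes in all 3 comparisons under every alternative run except array weights, which called 684 genes and 4 of the 10 in model against control and 6 genes in high dose against model. Over all genes, high dose against model had 1 call with only the 2 groups compared and 0 to 46 with 1 library left out, the 46 without high dose 3. With only libraries of Myh6 under 10 FPKM it had 591 calls and high dose against control 229, and the median of the 10 genes in model against control moved to 4.03; control and high dose then have 1 library each. Correlations of deviations from the group means ran from -0.522 to 0.306 between same-numbered libraries and from -0.376 to 0.438 between differently numbered ones. With 3 libraries a group, these ranges do not settle whether the replicate numbers pair the samples. With the replicate block 0 genes and 0 of the 10 were called, and the median in model against control stayed at 2.59. In model against control, Cd9 turned to -0.50 with array weights and -0.028 with limma-voom, with a range of -0.54 to 0.49 when 1 library was left out, and Acp5 to -0.092 with Myh6 under 10 FPKM. In high dose against model, Lgals3 turned to 0.62 with array weights, with a range of -1.13 to 0.49 when 1 library was left out. In high dose against control, Acp5 turned to 0.63 with array weights, with a range of -0.90 to 0.54, and Cd9 ranged from -0.0090 to 1.02. The causes were not tested. Of the log2 differences of single genes under alternatives, 181, 187 and 186 of 190 kept their direction and side of the threshold in model against control, high dose against model and high dose against control. Depth limits Atp6v0d2 and Mmp12 in control, which rest on 8 to 44 fragments.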

Other observations

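RNA levels of 2 cholesterol export pumps outside the set, chosen here after their values were seen, were read in the same tissue. Such levels do not measure cholesterol handling itself. Abca1 lay at 12.1, 13.5 and 21.3 FPKM in control, 78.1, 35.5 and 39.9 FPKM in model, and 44.8, 19.4 and 51.9 FPKM in high dose. Abcg1 lay at 4.01, 6.28 and 6.12 FPKM in control, 60.1, 14.0 and 19.5 FPKM in model, and 18.2, 12.5 and 23.9 FPKM in high dose. Both genes were higher in all model than in all control libraries, and Abcg1 also in all high dose libraries. Cd5l is a scavenger-receptor protein secreted by macrophages and, like the 2 pumps, was named outside the rules of choice. It was at 0, 0.784 and 0.378 FPKM in control, 374, 105.1 and 18.3 FPKM in model, and 11.1, 1.90 and 86.7 FPKM in high dose, which separated control from both groups.

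Matrix proteases and inhibitors related to Mmp12 differed in where they were highest. Timp1, an inhibitor of matrix metalloproteinases, lay at 20.3, 22.0 and 5.54 FPKM in control, 133, 11.5 and 28.2 FPKM in model, and 4.55, 15.3 and 197 FPKM in high dose. Mmp3, stromelysin-1, named after its values were seen, was at 71.6 FPKM in model 3 and 296 FPKM in high dose 3 and at 50.6 FPKM or less elsewhere. The groups overlapped for both. Mmp13, collagenase-3, and Timp2, a further inhibitor, both also named after their values were seen, were highest in model instead. Mmp13 lay at 0.0943 to 1.28 FPKM in control, 4.64 to 31.7 FPKM in model and 0.0458 to 4.40 FPKM in high dose, so model was above both groups. Timp2 reached 268 FPKM in model 1 and at most 130.1 FPKM in high dose, and its groups overlapped. Resident adventitial macrophage genes were 4 higher and 4 lower in model than in control, with a median log2 difference of 0.015 over 8 tested and 0 called by limma, with 1 at an unadjusted p under 0.05. Dendritic cell genes had 4 higher and 2 lower of 6 tested, with a median of 0.057 and 0 called, and 0 at an unadjusted p under 0.05. Inflammatory macrophage genes had 5 higher and 1 lower of 6 tested, with a median of 0.91, 0 called and 3 at an unadjusted p under 0.05. The most abundant of them, Egr1, an immediate early factor of many cell types, lay at 252, 117 and 38.2 FPKM in control and between 23.6 and 94.3 FPKM in the other 6 libraries.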
